A study of Mus musculus with 6 samples.

Results

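The 45 genes described here make ribosomes or transcribe the ribosomal RNA they contain. They were chosen by name: a gene belonged if its symbol in the deposited count tables was on a list of RNA polymerase I subunits and factors, Myc, and proteins of the nucleolus that modify, cut and fold ribosomal RNA. All 45 were found among the 55487 rows, each under a single identifier, and all 45 passed the filter on low counts. The lowest count of any of them in any library was 277. The samples were 3 libraries of cetylpyridinium chloride (CPC) exposed cells and 3 control libraries given phosphate-buffered saline (PBS), all labelled as wild-type ovarian granulosa cells of the mouse, the somatic cells around the oocyte. CPC is a quaternary ammonium antiseptic. No source used here gives a strain, an age, a dose or an exposure time, or says plainly whether the exposure took place in animals or in culture. The labels contradict themselves in part, since other fields name cultured SKOV3, a human ovarian cancer line, and a transfection with GATA4, while the tables hold mouse genes.

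A ribosome begins in the nucleolus, where RNA polymerase I copies the ribosomal DNA into a long precursor. Small nucleolar ribonucleoproteins (snoRNPs) guide chemical marks onto that precursor, the small subunit processome folds and cuts it, and separate sets of factors then finish the small and the large subunit. The transcription factor MYC is known to raise transcription of many genes of this pathway in growing cells, and granulosa cells of growing follicles divide and make much protein.

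Total counts were 19837674 to 22535261 in CPC libraries and 19079345 to 23157541 in control libraries. Granulosa markers were present at very different levels. Inha had 19494 to 28772 counts in CPC and 30419 to 44757 in control libraries, and 8 of 9 tested markers were lower in CPC, with a summed level of 4240 to 5240 CPM (counts scaled to a common library total) in CPC and 7120 to 8190 CPM in control. Amh, a marker of growing follicles, had at most 3 counts in any library, Fshr, the receptor for follicle-stimulating hormone, had 25 to 33 counts in CPC and 49 to 80 in control, and Cyp19a1, which encodes aromatase, had 13 to 29 counts in CPC and 8 to 14 in control. Cyp19a1 was the tested marker that was not called. Leukocyte markers were lower in CPC too, 9 of 9 tested of the 10 listed, with sums of 13.4 to 35.5 CPM in CPC and 191 to 316 CPM in control. The share of all tested genes called lower was 19.7%. None of 8 oocyte markers passed the filter, Zp2 and Bmp15 were at 0 in all CPC libraries, and their sums were 0.252 to 0.621 CPM in CPC and 1.31 to 4.66 CPM in control. No list of the remaining cell types had a called gene (edgeR; 0 also at an unadjusted p under 0.05). With the replicate number as a block, 3 surface epithelium markers (Krt8, Upk3b and Muc16), 1 theca and stroma marker (Lum) and 1 endothelial marker (Kdr) were lower in CPC (edgeR adjusted p of 0.00229 to 0.0486). Sums of 6 surface epithelium markers were 90.9 to 365 CPM in CPC and 153 to 335 CPM in control, highest in replicate 1 of both groups. The 6 theca and stroma markers summed to 263 to 924 CPM in CPC and 443 to 778 CPM in control, with Cyp17a1 at 0 in every library. The 6 endothelial markers summed to 3.02 to 4.08 CPM in CPC and 4.13 to 4.93 CPM in control. The 4 erythroid markers summed to at most 0.144 CPM in CPC and 0.0524 CPM in control, with Hba-a1 and Hbb-bs at 0 in every library. The part of these other cells in the results below was not tested. In bulk RNA, fewer cells of a type and less RNA per cell cannot be told apart.

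Transcripts of ribosome assembly genes were more abundant in CPC libraries, while those of the listed RNA polymerase I subunits, Polr1a to Polr1e, were not called in either direction. Of the 45 genes, 30 were called higher in CPC and 1, Nop10, lower by edgeR's quasi-likelihood test at a Benjamini-Hochberg adjusted p under 0.05. Of all 15000 tested genes 19.6% were called higher and 19.7% lower, 39.3% in all. The 30 increases were of modest size, 1.17-fold to 2.04-fold, and 19 of them were at least 0.5 on the log2 scale. The median log2 change of the 45 genes was 0.36, against -0.003 over all tested genes. In 33 of the 45 genes every CPC library was above every control library, and in 1 every CPC library was below, where 26.7% and 26.8% of all tested genes separated upward and downward. Well-expressed genes were called higher more often in general: with the tested genes ranked by mean level in 4 bins of 3750, 24.7% and 26.2% rose in bins 3 and 4, which held 18 and 25 of the 45 genes, of which 12 and 17 rose.

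**Figure D1:**
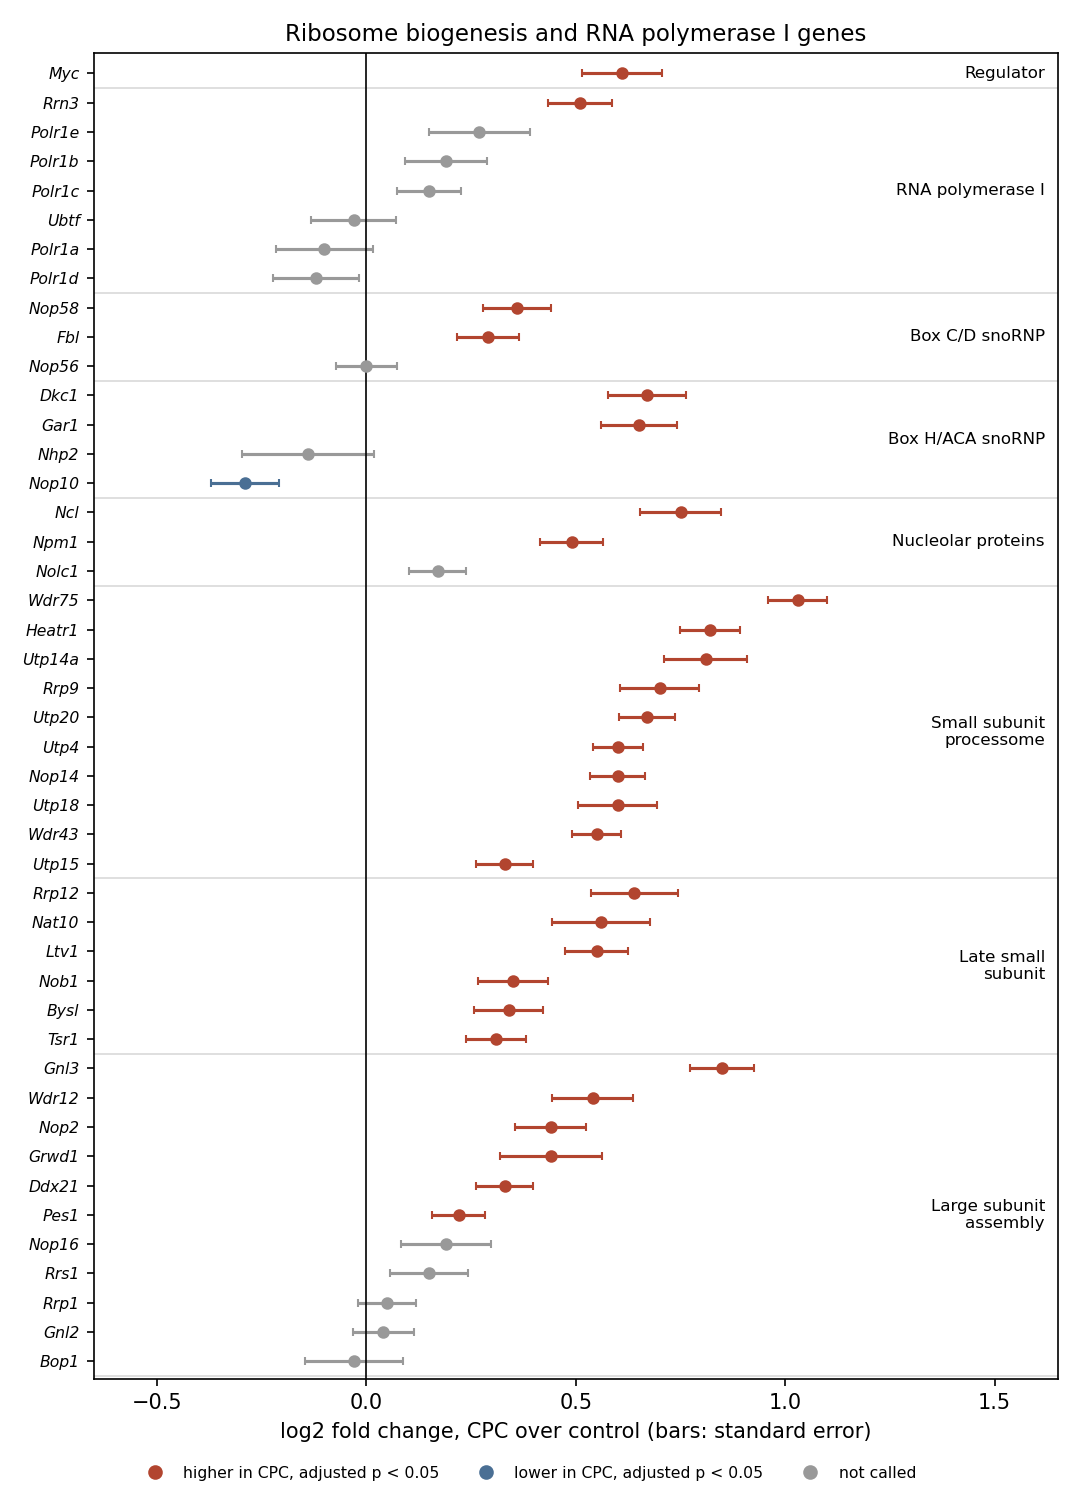
Log2 fold change of CPC over control (horizontal axis) with its standard error for each of the 45 genes, grouped by role. Red marks genes called higher in CPC, blue the 1 called lower and grey those not called; all 10 small subunit processome genes lie to the right of 0, while the RNA polymerase I subunits lie between -0.12 and 0.27.

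Added together, the 45 genes held 4930, 4970 and 5230 CPM in CPC 1 to 3, against 3550, 3470 and 3650 CPM in control 1 to 3. The groups did not overlap. Much of that sum belonged to Ncl and Npm1. Without them it was 3520, 3570 and 3730 CPM in CPC libraries, against 2660, 2620 and 2760 CPM in control libraries. These sums are plain CPM, while levels of single genes below are CPM scaled by the trimmed mean of M values (TMM) and fold changes are CPC over control.

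Myc, the transcription factor gene at the head of the pathway (ENSMUSG00000022346; chromosome 15, 61985391 to 61990374, GRCm38.p6, plus strand), had 184, 198 and 194 CPM in CPC libraries, against 118, 116 and 143 CPM in control libraries. The lowest CPC library was above the highest control. The log2 change was 0.61 ± 0.096 (standard error; edgeR adjusted p = 0.00312), and Myc kept its call without any 1 library and without any replicate number of both groups. Its relatives were called in both directions: of 11 tested genes of the Myc network 3 rose, 3 fell and 5 were not called, beside general shares of called genes (19.6% higher and 19.7% lower). The 3 with the smallest adjusted p are given first. Mxd4, whose protein competes with MYC for the partner MAX, fell to 44.2 ± 1.72 CPM in CPC, against 75.7 ± 10.6 CPM in control (SD, n = 3). Mnt, another competitor for MAX, rose to 45.5 ± 3.48 CPM in CPC, against 27.5 ± 2.77 CPM in control. Mxd1, of the same family as Mxd4, fell to 11.6 ± 1.42 CPM in CPC, against 17.8 ± 1.16 CPM in control. Mga and Mxi1 also rose, with log2 changes of 0.39 and 0.59, and Mxd3 fell to 0.259 ± 0.123 CPM in CPC, against 1.02 ± 0.172 CPM in control. Max itself was at 95.1 ± 8.96 CPM in CPC and 86.6 ± 3.66 CPM in control and was not called.

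MYC with MAX binds the E-box CACGTG, so the letters around the start sites were read for that motif, which reads the same on both strands. Windows of 250 bases before to 50 after the RefSeq start (GRCm38.p6) were matched by symbol for 38 of the 45 genes, with 45 windows since some genes have several starts, and in 37 of them the 30 bases after the start lay in a GENCODE M21 transcript of the gene. The motif stood in the windows of 10 of the 38 (26.3%), against 11.7% of 10722 tested genes with a window and 8.09% of 27025 genes in all. All 10 were among the 26 genes called higher that had a window, and none among the other 12. The same split by call over all tested genes was not computed. This is a description of letters in a window and was not tested. A match does not show binding. Rrn3 had the motif at 2 places, Nop2 and Utp18 before the start and the rest just after it. The 250 bases before the start of Rrn3 are shown because both of its E-boxes (capitals) lie there, followed by the other 9 sites with up to 10 bases on either side, each in the direction of the gene.
Rrn3, chr16:13780449-13780698, plus strand: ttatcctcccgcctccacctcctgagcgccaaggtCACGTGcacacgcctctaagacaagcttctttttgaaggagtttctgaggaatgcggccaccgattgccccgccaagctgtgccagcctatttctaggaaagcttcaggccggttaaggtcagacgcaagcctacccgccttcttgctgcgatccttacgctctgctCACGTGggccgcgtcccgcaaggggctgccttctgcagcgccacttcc
Nop2, chr6:125131813-125131838, plus strand: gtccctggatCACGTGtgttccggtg
Utp18, chr11:93885771-93885796, minus strand: gagcgccggtCACGTGgcttgcggcg
Pes1, chr11:3963967-3963992, plus strand: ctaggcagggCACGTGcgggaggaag
Utp4, chr8:106893645-106893670, plus strand: cgcaagcgcgCACGTGgggccggggc
Wdr43, chr17:71616222-71616247, plus strand: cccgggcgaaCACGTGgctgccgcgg
Tsr1, chr11:74898094-74898119, plus strand: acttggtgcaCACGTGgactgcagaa
Ltv1, chr10:13193094-13193119, minus strand: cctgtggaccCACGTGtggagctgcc
Grwd1, chr7:45830740-45830765, minus strand: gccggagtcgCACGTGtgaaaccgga
Utp20, chr10:88826765-88826787, minus strand: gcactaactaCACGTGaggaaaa
The letters on either side differed from site to site. The ETS family core CCGGAAG stood in 9 of the 26 genes called higher and 4 of the other 12 (34.2% of the 38, against 19.5% of tested genes). The GC box GGGCGG stood in 68.4% of the 38 and 68.8% of tested genes. TGATGNAA, the core of elements bound by ATF4, stood in 1 of the 38, Nop14 (2.63%, against 2.67% of tested genes). Each motif was searched on both strands. Of the 11 E-box matches 0 shared a base with a match of another motif.

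RNA polymerase I has its own subunits and shares others with polymerases II and III. None of the 5 listed subunit genes was called by edgeR with TMM scaling, and with library size as the only scaling Polr1c was called higher (log2 change 0.22; edgeR adjusted p = 0.0463). Polr1a, the largest and catalytic subunit (chromosome 6, 71909053 to 71984935), had 129, 144 and 144 CPM in CPC libraries, against 126, 170 and 152 CPM in control libraries. Polr1b, the second of the catalytic pair, had 34.1, 29.7 and 32.8 CPM in CPC, against 30.2, 25.6 and 29 CPM in control. The groups overlapped for both. Polr1c, which the polymerase shares with polymerase III, had 39.2, 42.6 and 42.4 CPM in CPC, against 37.6, 36 and 38.3 CPM in control. Polr1d, its shared partner, had 37.1, 41.8 and 46.7 CPM in CPC, against 42.4, 47 and 46.7 CPM in control. Polr1e, a subunit that helps the enzyme start and elongate, had 18, 20.6 and 20.2 CPM in CPC, against 17.9, 14.1 and 16.7 CPM in control. Polr1c and Polr1e did not overlap between groups, with every CPC library above every control. Their log2 changes were 0.15 and 0.27, with 95% intervals of -0.03 to 0.33 and -0.01 to 0.56, so increases up to the upper bounds are within the error. The intervals were -0.38 to 0.17 for Polr1a, -0.04 to 0.42 for Polr1b and -0.36 to 0.12 for Polr1d.

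The initiation side was split. Rrn3, which encodes the factor TIF-IA that loads the polymerase onto ribosomal DNA promoters (chromosome 16, 13780708 to 13814839), had 167, 167 and 166 CPM in CPC libraries, against 121, 106 and 124 CPM in control libraries. Its log2 change was 0.51 ± 0.0764 (standard error; edgeR adjusted p = 0.00265), and it kept its call without any 1 library. Ubtf, the HMG-box protein that coats active ribosomal DNA, had 92.9, 107 and 115 CPM in CPC, against 105, 99.8 and 118 CPM in control, and overlapped fully. Of the 17 further polymerase I genes listed, 6 rose and 2, Polr2l and Polr2k, fell. Among all tested genes 19.6% were called higher and 19.7% lower. Mybbp1a, a nucleolar protein that binds the polymerase, rose to 282 ± 3.27 CPM in CPC, against 167 ± 3.47 CPM in control (SD, n = 3). Tcof1, which encodes the polymerase cofactor treacle, rose to 53.8 ± 1.66 CPM in CPC, against 32.7 ± 1.21 CPM in control. Polr2l, a small subunit common to polymerases I, II and III, fell to 37.5 ± 5.75 CPM in CPC, against 76.1 ± 6.74 CPM in control. Taf1a to Taf1d are further initiation genes of that list. Taf1b and Taf1d rose, with log2 changes of 0.57 and 0.59 (edgeR adjusted p = 0.00355 and 0.0142). Taf1a and Taf1c were not called, with log2 changes of 0.35 and 0.03. With Polr1f, Polr1g and Polr1h added from that list, 0 of the 8 genes from Polr1a to Polr1h were called by edgeR, 0 had an unadjusted p under 0.05, and DESeq2 and limma-voom also called 0. The exception among the alternatives was Polr1c, higher with library size as the only scaling. Of the subunits shared with other polymerases, Polr2e rose by 0.33 on the log2 scale, while Polr2k fell by 0.39 and Polr2l, given above, by 1.02. The 8 genes from Polr1a to Polr1h summed to 344 to 378 CPM in CPC libraries and 332 to 362 CPM in control libraries.

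**Figure D2:**
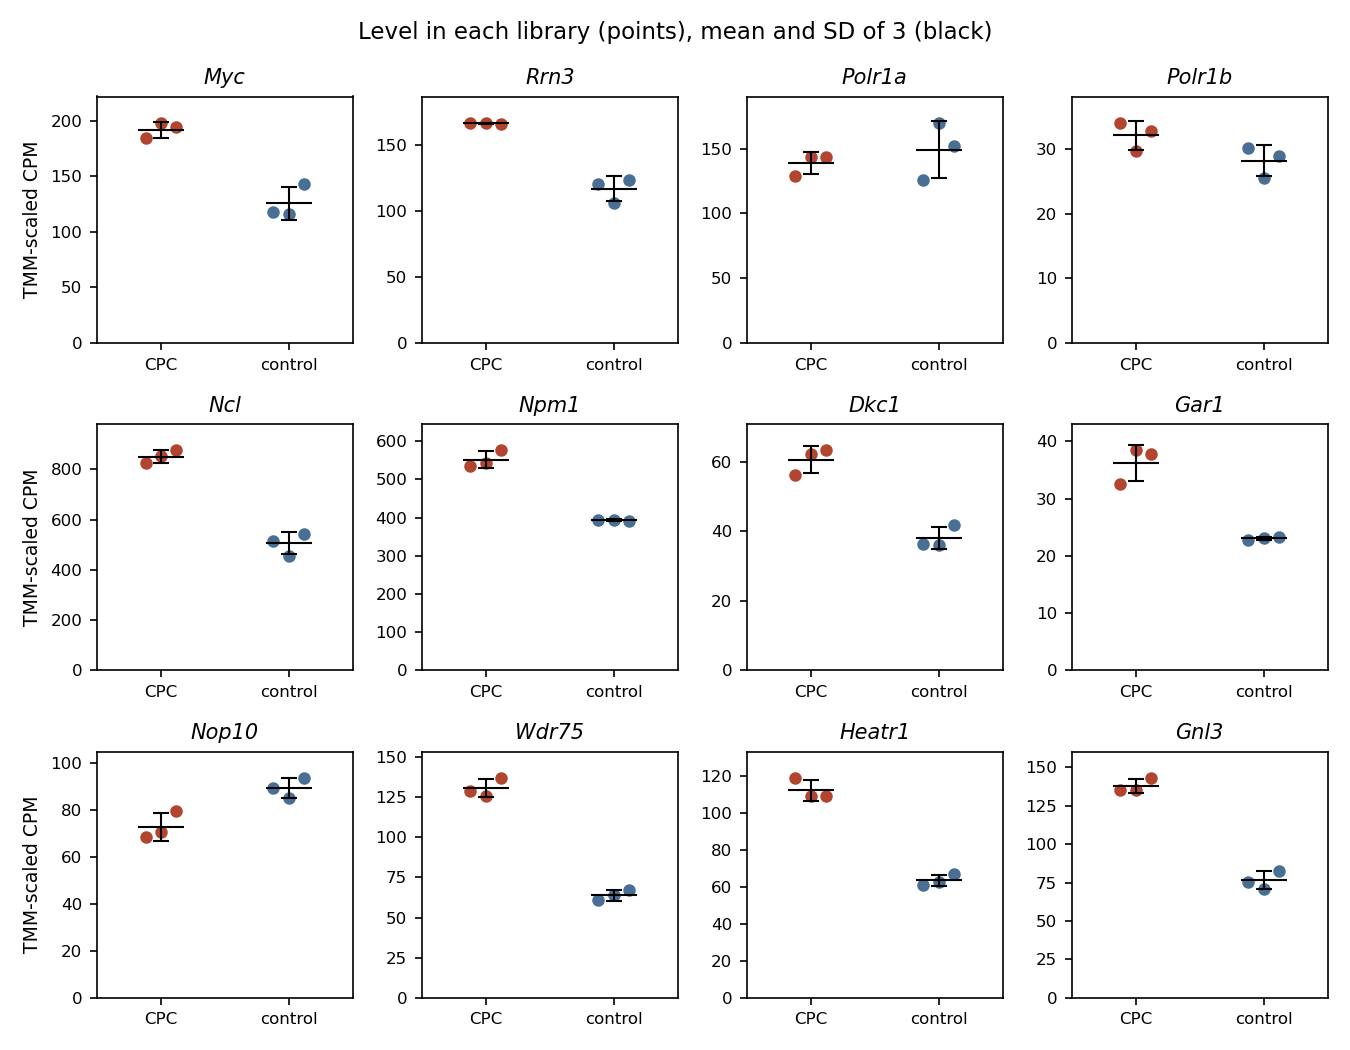
Level of 12 of the genes in each library (points, TMM-scaled CPM on an axis from 0), CPC left of control, with the mean and SD of 3 libraries in black. Myc, Rrn3, Ncl, Npm1, Dkc1, Gar1, Wdr75, Heatr1 and Gnl3 separate upward in CPC, Nop10 separates downward, and Polr1a and Polr1b overlap.

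The snoRNPs showed uneven changes within each particle. Box H/ACA particles convert uridine to pseudouridine and consist of the synthase dyskerin with 3 partners. Dkc1, the dyskerin gene (chromosome X, 75095854 to 75109777), had 56.2, 62.3 and 63.2 CPM in CPC libraries, against 36.2, 36.1 and 41.7 CPM in control libraries, a log2 change of 0.67 ± 0.092 (standard error; edgeR adjusted p = 0.00187). Gar1, a partner that helps release the substrate, had 32.5, 38.4 and 37.7 CPM in CPC, against 22.8, 23.1 and 23.2 CPM in control, a log2 change of 0.65 ± 0.0905. Both separated fully from control. Nop10 (ENSMUSG00000027133; chromosome 2, 112261926 to 112263269), a small partner bound to dyskerin, had 68.5, 70.6 and 79.7 CPM in CPC, against 89.5, 85 and 93.7 CPM in control. It was the only gene of the 45 called lower, with a log2 change of -0.29 ± 0.082 (standard error; edgeR adjusted p = 0.0267). That call was lost without CPC 1, CPC 2, control 1 or control 3, and with library size as the only scaling (edgeR adjusted p = 0.0593; 0.00443 to 0.219 over all alternatives). Nhp2, the RNA-binding partner, had 56.9, 59.4 and 75.5 CPM in CPC, against 69.9, 58.4 and 83.2 CPM in control, and was not called.

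Per kilobase of exon the same particle was uneven to begin with. Nop10 and Nhp2 stood at 65.8 ± 5.34 and 61.4 ± 9.69 CPM per kilobase in CPC, against 80.6 ± 3.94 and 67.7 ± 11.9 in control (SD, n = 3). Gar1 and Dkc1 stood at 28.5 ± 2.52 and 21.6 ± 1.37 CPM per kilobase in CPC, against 18.1 ± 0.179 and 13.6 ± 1.14 in control. The 2 most abundant transcripts of the particle were thus the 2 that did not rise, and the gap between the pairs was narrower in CPC libraries. Nop10 and Nhp2 have exon lengths of 1109 and 1042 bases.

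Box C/D particles add methyl groups to ribose. Fbl, the methyltransferase fibrillarin, rose to 89.8 ± 6.03 CPM in CPC, against 73.7 ± 2.35 CPM in control (SD, n = 3; edgeR adjusted p = 0.0203). Its call was lost without CPC 2, CPC 3, control 1 or control 2. The gene descriptions in the deposited tables name 1 pseudogene for Fbl, which had 309 counts over the 6 libraries against 10441 for Fbl, so reads could be split between them. Nop58, a core scaffold protein, rose to 148 ± 13.3 CPM in CPC, against 115 ± 3.04 CPM in control. Nop56, its paralogous partner in the scaffold, had 84.2, 89.9 and 86.1 CPM in CPC libraries, against 90.2, 80.5 and 90 CPM in control libraries, with a 95% interval of the log2 change of -0.17 to 0.17. Of 8 genes that assemble snoRNPs, 3 rose and 0 fell (0 also at an unadjusted p under 0.05, by DESeq2 and by limma-voom). The shares of all tested genes were 19.6% higher and 19.7% lower. Nufip1, which tethers the assembling box C/D proteins, rose to 33.9 ± 2.26 CPM in CPC, against 18 ± 1.47 CPM in control. Ruvbl2, an ATPase of the assembly chaperone, rose to 95.3 ± 6.79 CPM in CPC, against 64.9 ± 4.46 CPM in control. Znhit6 rose to 23.4 ± 1.11 CPM in CPC, against 17.6 ± 2.57 CPM in control.

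Nucleolin and nucleophosmin, the most abundant proteins of the nucleolus, had the highest counts of the set. Ncl, which encodes nucleolin, a binder of nascent ribosomal RNA (chromosome 1, 86344719 to 86359400), had 823, 854 and 875 CPM in CPC libraries, against 516, 457 and 543 CPM in control libraries. The log2 change was 0.75 ± 0.0972 (standard error; edgeR adjusted p = 0.00155). Npm1, which encodes the assembly chaperone nucleophosmin, had 536, 544 and 576 CPM in CPC, against 394, 395 and 390 CPM in control, a log2 change of 0.49 ± 0.0761. Control libraries differed little from each other for Npm1, and neither gene overlapped between groups. Nolc1, which encodes a chaperone of snoRNPs, had 85.5 ± 2.25 CPM in CPC and 75.9 ± 4.07 CPM in control (edgeR adjusted p = 0.0858).

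All listed genes of the small subunit processome rose. It is the large particle that forms on the front part of the precursor, and its 10 genes rose, with log2 changes of 0.33 to 1.03 and a median of 0.64, where 19.6% of all tested genes rose. The first proteins to bind the precursor are those of the UTP-A complex, and 5 of its genes were listed. Wdr75, a UTP-A subunit (ENSMUSG00000025995; chromosome 1, 45795166 to 45823619), had the largest change of all 45 genes, with 129, 126 and 137 CPM in CPC libraries, against 60.7, 63.9 and 67.4 CPM in control libraries. That is a log2 change of 1.03 ± 0.0704 (standard error; edgeR adjusted p = 0.000209). Heatr1, the long scaffold protein of the complex (chromosome 13, 12395027 to 12440289), had 119, 109 and 109 CPM in CPC, against 61, 62.9 and 66.9 CPM in control, a log2 change of 0.82 ± 0.0713. Utp4 had 106, 111 and 110 CPM in CPC, against 71.1, 72 and 72.1 CPM in control. Wdr43 had 110, 113 and 111 CPM in CPC, against 78, 75.1 and 74.7 CPM in control. Both groups were tight and far apart for these 2 UTP-A genes. Utp15 rose least, to 59.9 ± 2.26 CPM in CPC, against 47.8 ± 0.466 CPM in control (SD, n = 3).

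The other processome genes act beside UTP-A. Utp14a, whose yeast counterpart activates the helicase that dismantles the particle (chromosome X, 48256862 to 48282453), had 59.2, 65.6 and 51.9 CPM in CPC libraries, against 32.9, 33.5 and 33.9 CPM in control libraries, a log2 change of 0.81 ± 0.0987 (edgeR adjusted p = 0.00122). Rrp9, which binds the U3 guide RNA, had 30.7, 29.7 and 34.1 CPM in CPC, against 19.1, 18.2 and 20.7 CPM in control. Utp20, a very long helical repeat protein, had 131, 119 and 133 CPM in CPC, against 80.1, 81.6 and 78.2 CPM in control. The groups did not overlap for any of these. Utp18, of the UTP-B complex, had 56.3, 59.6 and 64.8 CPM in CPC, against 37.9, 37.9 and 43.9 CPM in control. Nop14 had 91.6, 94.5 and 93.2 CPM in CPC, against 61.5, 58.7 and 64.5 CPM in control. All 10 genes kept their calls without any 1 library. Exons of Heatr1 share 155 bases with Lgals8 on the other strand, whose log2 change was 0.57, and since no source states the strand of the counting, reads there cannot be told apart.

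Late small subunit factors also all rose, 6 of 6, where 19.6% of all tested genes rose, with a median log2 change of 0.45. Rrp12, a factor of the late nuclear and exported particle, had 42.7, 44.1 and 45.5 CPM in CPC libraries, against 26.5, 26.1 and 32.4 CPM in control libraries (log2 change 0.64 ± 0.103, standard error; edgeR adjusted p = 0.00347). Ltv1, which is removed before the last cytoplasmic steps, had 49.5, 49.4 and 48.5 CPM in CPC, against 32.7, 32.2 and 35.5 CPM in control. Nat10, which acetylates small subunit rRNA, had 46.6, 52 and 48.6 CPM in CPC, against 31.6, 29.7 and 38.9 CPM in control. The groups did not overlap for any of these, and control 3 was the highest control for each. Smaller increases were seen for Nob1, the nuclease that makes the final cut of small subunit rRNA, at 36.5 ± 1.49 CPM in CPC and 28.6 ± 1.83 CPM in control (SD, n = 3). Bysl stood at 40.6 ± 2.57 CPM in CPC and 32.1 ± 1.21 CPM in control. Tsr1 stood at 82.8 ± 4.45 CPM in CPC and 66.7 ± 2.42 CPM in control. Nob1 and Tsr1 lost their calls without control 1. Tsr1 shares 1240 exon bases with Srr on the other strand, which also rose (log2 change 0.66), and Bysl shares 361 with Ccnd3, which was not called (-0.26), so those 2 counts are uncertain. Among 42 further small subunit genes, 22 rose and 0 fell (0 also at an unadjusted p under 0.05, by DESeq2 and by limma-voom), with a median log2 change of 0.28. Dimt1, an rRNA methyltransferase, rose 1.63-fold, Pwp2, a UTP-B subunit, 1.61-fold and Ngdn 1.44-fold.

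Large subunit factors were divided. Of 11 genes 6 rose and 5 were not called, where 19.6% of all tested genes rose, and the median log2 change was 0.22. Gnl3, which encodes the nucleolar GTPase nucleostemin (chromosome 14, 31012433 to 31019152), had 135, 135 and 143 CPM in CPC libraries, against 75.5, 71 and 82.6 CPM in control libraries. Its log2 change of 0.85 ± 0.0765 (standard error; edgeR adjusted p = 0.000464) was the second of the 45 in size. Gnl2, a GTPase of the same family, had 70.8 ± 0.646 CPM in CPC and 68.7 ± 4.62 CPM in control (SD, n = 3), with a 95% interval of the log2 change of -0.13 to 0.21. The PeBoW complex, which is needed to process large subunit rRNA, was split in the same way. Its WD-repeat subunit gene Wdr12 had 44.8, 40.7 and 47.4 CPM in CPC, against 29.5, 28.4 and 33.2 CPM in control, a log2 change of 0.54 ± 0.0969 (edgeR adjusted p = 0.00504). Pes1 rose to 118 ± 4.89 CPM in CPC, against 101 ± 3.23 CPM in control, and lost its call without CPC 2, CPC 3, control 1 or control 2. Bop1, the third subunit, had 44.6, 44.2 and 54.2 CPM in CPC, against 45.3, 45.9 and 54.7 CPM in control, and CPC 3 and control 3 were the highest of their groups.

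The other large subunit genes that rose were Nop2, a methyltransferase of large subunit rRNA, at 81.9 ± 4.5 CPM in CPC and 60.5 ± 4.82 CPM in control (SD, n = 3), and Ddx21, an RNA helicase, at 212 ± 10.2 CPM in CPC and 169 ± 5.25 CPM in control. Grwd1, a chaperone, stood at 21.9 ± 1.45 CPM in CPC and 16.2 ± 2.17 CPM in control, and lost its call without CPC 1, CPC 3, control 1 or control 2. Nop16, Rrs1 and Rrp1 were not called, with log2 changes of 0.19, 0.15 and 0.05. Nop16 passed when the replicate number was a block in the fit (edgeR adjusted p = 0.0496), a fit in which 26.5% of all tested genes were higher and 27.9% lower. Among 49 further large subunit genes 34 rose and 0 fell (0 also at an unadjusted p under 0.05, by DESeq2 and by limma-voom), with a median log2 change of 0.41. In the fit without the block 19.6% of all tested genes were higher and 19.7% lower. Sdad1 rose to 79.7 ± 1.75 CPM in CPC, against 46.2 ± 0.856 CPM in control. Nol9, a kinase that acts on cut precursor ends, rose 1.71-fold, and Tex10, a subunit of the complex that binds it, 1.53-fold.

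**Figure D3:**
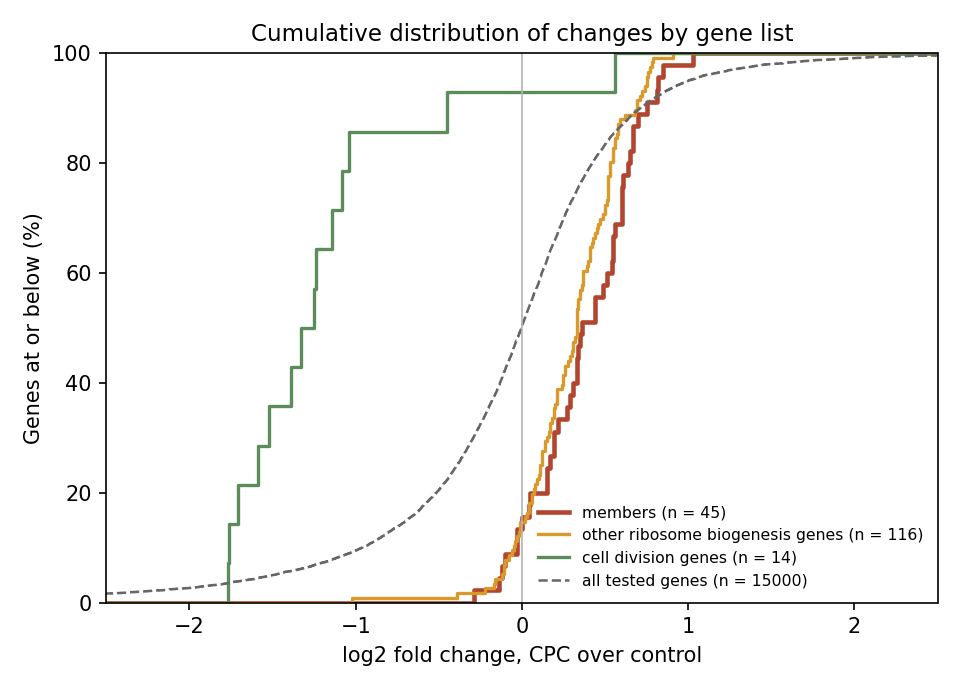
Share of genes (vertical axis, percent) at or below each log2 fold change of CPC over control for the 45 genes, 116 other ribosome biogenesis genes, 14 cell division genes and all 15000 tested genes. Both ribosome biogenesis curves cross 50% right of 0, at medians of 0.36 and 0.33, and the cell division curve crosses it at -1.29.

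Together the 4 lists of ribosome biogenesis genes outside the 45 had 65 of 116 genes higher and 2 lower, with a median log2 change of 0.33. The shares of all tested genes were 19.6% higher and 19.7% lower. Cell division genes went the other way in the same libraries. Of 14 tested, 13 fell and 1 rose, with a median log2 change of -1.29. Rrm2, a subunit of the enzyme that makes deoxyribonucleotides, fell to 17.9 ± 1.99 CPM in CPC, against 60.4 ± 6.84 CPM in control (SD, n = 3). Plk1, a mitotic kinase, fell to 5.55 ± 1.66 CPM in CPC, against 18.2 ± 5.25 CPM in control. Mcm2, a subunit of the replication helicase, was the exception and rose to 65.5 ± 3.11 CPM in CPC, against 44.3 ± 4.59 CPM in control.

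Per kilobase of exon the 45 genes spanned a wide range. Npm1 was highest at 338 ± 13 CPM per kilobase in CPC, against 241 ± 1.77 in control (SD, n = 3), followed in CPC by Ncl at 104 ± 3.21, against 61.6 ± 5.38 in control. Myc came next in CPC, at 82.1 ± 3.2, against 53.7 ± 6.49 in control. Fbl at 75.1 ± 5.04, Rrp1 at 73.3 ± 3.05 and Gnl3 at 70.6 ± 2.61 in CPC did not differ beyond their spread. At the low end were Wdr12 at 4.42 ± 0.333 CPM per kilobase in CPC, against 3.03 ± 0.249 in control, and Polr1b at 8.05 ± 0.566 in CPC, against 7.07 ± 0.59 in control. The tables give Ncl, Nop58 and Wdr12 exon lengths of 8202, 9507 and 10012 bases, and a length that sums the exons of all transcripts understates the level of the main one.

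**Figure D4:**
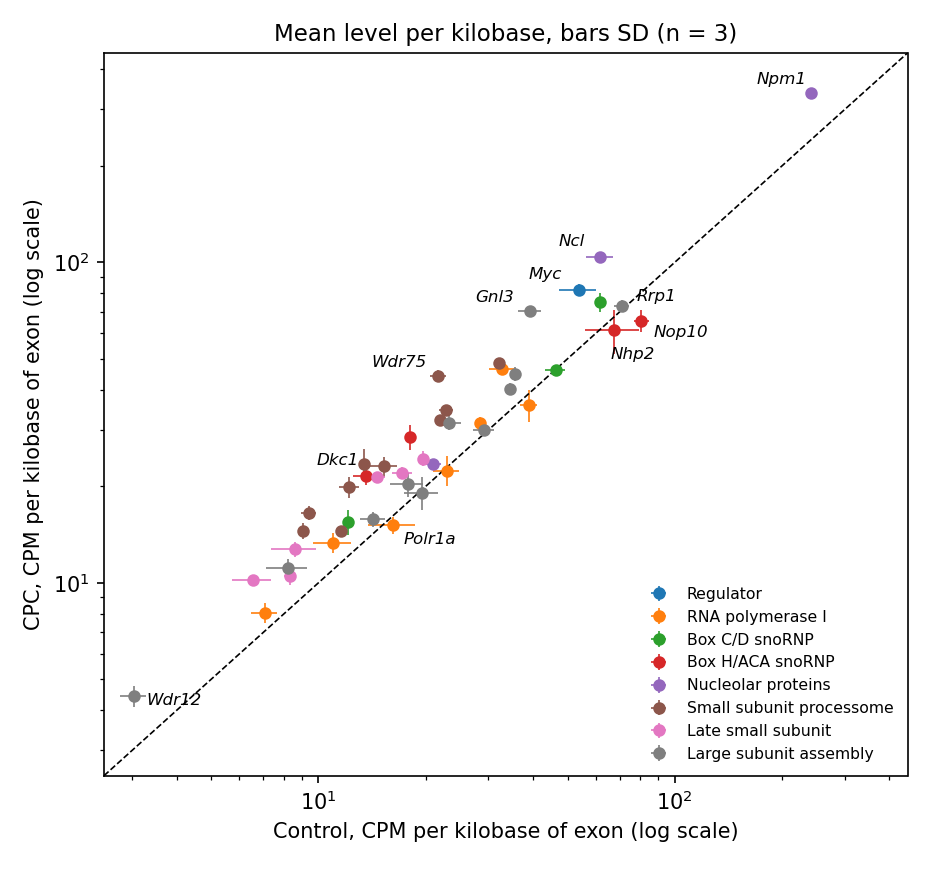
Mean level per kilobase of exon in CPC (vertical axis) against control (horizontal axis), both on log scales, coloured by role, with SD bars over 3 libraries and a dashed line of equal level. Most genes lie above the line, Npm1 is highest at 338 in CPC and 241 in control, and Nop10, Nhp2 and Polr1a are among those below the line.

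The libraries paired by replicate number. In all 30 genes called higher every CPC library was above every control, so all 3 pairs of equal number had to be above control too. By rounded ratios 34 of the 45 genes were above control in all 3 pairs. That count leaves out Polr1e, whose ratio in number 1 rounded to 0. The share of all tested genes above control in all 3 pairs was not computed. Wdr75 had log2 ratios of 1.09, 0.98 and 1.02 in numbers 1, 2 and 3, and Utp4 of 0.57, 0.62 and 0.60. Nat10 was more spread, at 0.56, 0.81 and 0.32. Nop10 was lower in all 3, at -0.39, -0.27 and -0.23. Polr1a had ratios of 0.04, -0.24 and -0.08.

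**Figure D5:**
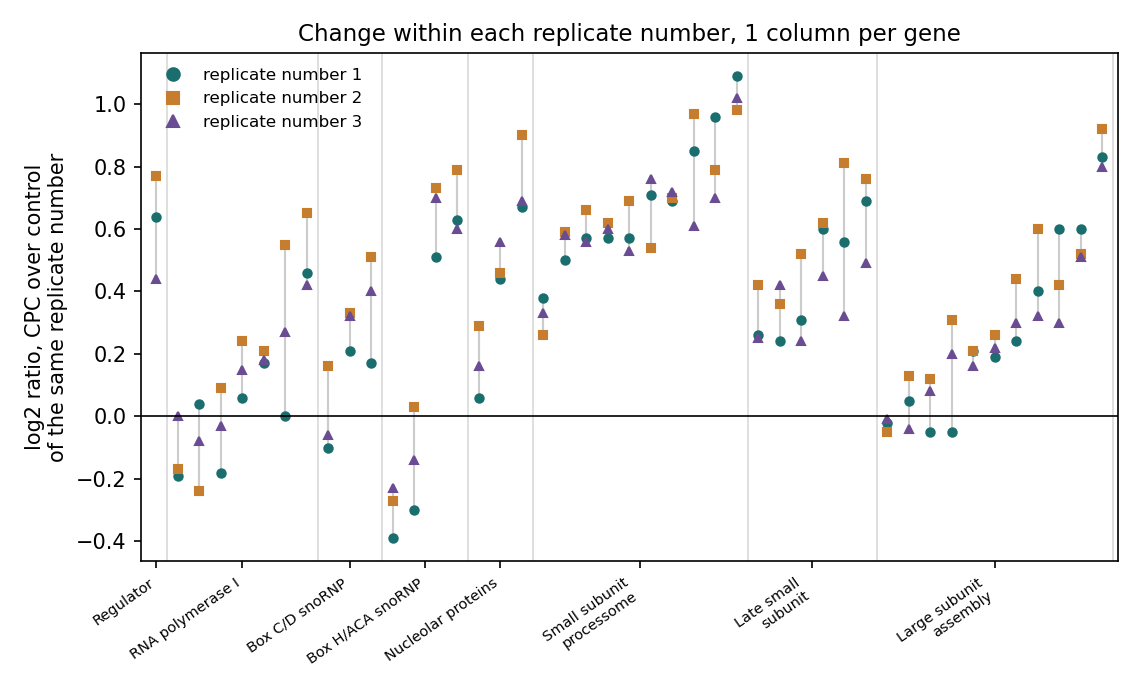
Log2 ratio of CPC over control between libraries of equal replicate number (vertical axis), 1 column per gene in groups by role, ordered by mean change within a group. Every processome column lies above 0.25 in all 3 numbers, while those of Polr1a, Polr1d and Ubtf reach below 0 and those of Polr1e start at 0.

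By position, 7 of the 45 genes carry snoRNA genes on their own strand within their bounds, 21 in all by the GENCODE M21 annotation, which gives the same bounds as the tables for all 45. Nop56 holds 5, Nop58 4, and Ncl, Wdr43 and Gnl3 3 each, with 2 in Tsr1 and 1 in Dkc1. Of these 7 hosts 6 rose, all but Nop56, against 24 of the other 38 genes and 19.6% of all tested genes. Exons of 17 of the 45 overlap another gene on the other strand, by 5 bases (Nop56) to 1240 (Tsr1). Nhp2 shares 44 bases with Rmnd5b and Rrp9 shares 20 with Parp3. Rmnd5b and Parp3 both fell, with log2 changes of -1.18 and -0.8.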

How the data were processed

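The authors deposited 1 table per library with a raw count per gene, whole numbers with totals of 19079345 to 23157541, together with exon length, symbol, location and strand, per the file headers (GRCm38.p6). The submitters' processing notes name Bowtie2, RSEM and build hg19, without versions or roles. That build is human and the rows are mouse genes, so the aligner and counter are uncertain. The strand counted and the handling of shared reads are not given in these sources.

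Counts were used as deposited. The filterByExpr filter left 15000 of 26620 genes with any count. TMM factors were computed and the groups compared with edgeR 4.0.16 (quasi-likelihood, robust, no covariate; R 4.3.3), adjusted by Benjamini-Hochberg over all tested genes at 0.05. Standard errors were taken from the log2 change and its F statistic, and 95% intervals use the fit's degrees of freedom. Alternatives used DESeq2 1.42.0 and limma 3.58.1. The script was tested on simulated counts with 200 changed genes. It recovered 14 of 65 changes of 1.5-fold, 38 of 66 of 2-fold and 57 of 63 of 4-fold. Of its 124 calls 15 were false, a larger share than the 0.05 that the adjusted p threshold aims for. How closely the simulated counts resemble these libraries was not tested. Promoter windows came from RefSeq. All 45 genes are named whatever their values, and so are those with the 3 smallest adjusted p among the called genes of each further list. Library values are given for those called with a log2 change of at least 0.5, Myc, the polymerase subunits and, chosen after their values were seen, a few more. Max, Mga, Mxi1, Mxd3, Polr2e, Polr2k, Taf1a to Taf1d, the markers singled out and the overlapping genes were named after their values were seen. The members and lists were chosen with earlier results of these data known.

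No label says that replicates came from separate cultures or animals, so p-values measure library-to-library spread only, possibly technical. No 2 libraries of a group agreed within counting noise. Once the group means were removed, log levels correlated at 0.626, 0.576 and 0.596 between libraries of equal replicate number. On these values the numbers pair the libraries. Correlations between the others were -0.238 to -0.342. Removing the group means pushes those below 0 once the first are positive, so they add no separate support. The pairing comes from the data.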

Additional observations from a re-analysis of the deposited data

How the results depend on the processing

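Each of the 45 genes was recomputed under 17 alternatives. No called gene changed direction. Of 765 values, 696 kept direction and side of the threshold, 49 lost a call and 3 gained one. Of the 30 genes called higher 16 kept the call under every alternative, and 5 (Fbl, Pes1, Grwd1, Nob1 and Tsr1) lost it without some single library. With library size as the only scaling, 32 were higher, Polr1c and Nolc1 being the gains, and 0 lower (edgeR; Nop10 at an adjusted p of 0.0593; DESeq2 with its own factors called 1), and Ubtf, Nop56 and Bop1, none of them called, changed sign to 0.04, 0.07 and 0.04 on the log2 scale. With no low-count filter Nop56 was at 0.01. Leaving out 1 library, or 1 replicate number of both groups, gave 17 to 30 genes higher and 0 to 1 lower, the fewest without replicate 1 of both groups, when 928 of all tested genes were higher and 1033 lower. Without replicate 2 of both groups 20 of the 45 were higher, with 1736 of all tested genes higher and 1650 lower, and leaving out control 1 gave 25, with 1932 of all higher. Over these settings all tested genes had 928 to 2613 higher and 1033 to 2576 lower, and the median of the 45 genes was 0.35 to 0.43. Uncalled genes that changed sign among them ranged from -0.10 to 0.06 (Ubtf, 0.03 without replicate 1 of both groups), -0.07 to 0.05 (Nop56, 0.03 without replicate 3 of both groups or CPC 1 and -0.06 without control 2), -0.13 to 0.06 (Bop1) and 0.00 to 0.09 (Gnl2). The cause was not tested, except that fewer libraries enter these fits. Blocking on replicate number left 31 genes higher and 1 lower, Nop16 being the gain, and 3978 of all tested genes higher and 4178 lower. The block changed no other call among the 45. Depth limits none of the 45 strongly, since the lowest count was 277, but with 3 libraries a group the intervals of uncalled genes reach from -0.51 to 0.56.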
